A study of Rattus norvegicus with 30 samples.

Results

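The major histocompatibility complex of the rat, called RT1, lies near the start of chromosome 20. The 649 peak regions described here were all meDIP-seq regions called in 3 or more of 30 libraries that overlapped chr20:1000000-5500000 of the Rn6 assembly, a window of 4.5 Mb. They were taken from 352479 regions of the whole genome without the sex chromosomes, likewise called in 3 or more libraries. These are meant below by all regions and by regions of the genome. In meDIP-seq, an antibody against 5-methylcytosine pulls methylated DNA fragments out of a sheared genome, and the fragments are sequenced. A peak marks a place where methylated fragments pile up, and its height reflects both how many cytosines are methylated and how many can be, so it is not a percentage of DNAm. In bulk tissue, fewer methylated cells and fewer methylated cytosines per cell cannot be told apart.

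The libraries came from the PFC of outbred Sprague-Dawley rats at postnatal day 22. The 10 CON animals were born to dams given a pelleted control diet without restriction, the 10 PF animals to dams given a liquid control diet in the amount eaten by a PAE partner, and the 10 PAE animals to dams given a liquid diet containing ethanol. All diets were given through gestation and replaced with chow afterwards. Each of 15 dams, 5 per group, gave 1 pup labelled female and 1 labelled male, and the libraries were spread unevenly over 5 sequencing lanes.

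The RT1 complex is among the most gene-dense and most variable stretches of the rat genome. Its class I genes encode the surface proteins that show peptides from inside a cell to cytotoxic T cells, and its class II genes encode those that professional antigen-presenting cells use to show peptides to helper T cells. The complex also holds the class III stretch, with the complement genes C2, Cfb and C4a and many genes with no role in antigen presentation. In the brain, class I proteins are found on neurons and microglia and have been tied to the trimming of synapses, and class II proteins are known from activated microglia. Outbred animals can carry different RT1 haplotypes, and littermates share parents, which is why presence of each peak is given by dam as well as by prenatal group. A genome or annotation of Rn6 was not used here, so most regions carry no gene name. Near-identical gene copies are common in RT1, and which copy a fragment came from is uncertain for such sequence.

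Peaks on the sex chromosomes went against the labelled sex in 18 of the 30 libraries, 13 labelled female and 5 labelled male. In 23 libraries, 0.775 to 1.15% of all peaks lay on chromosome X, with 518 to 1601 peaks on chromosome Y and its scaffolds. The other 7 libraries had 2.66 to 3.14% on X and 74 to 113 on Y. The X and Y peaks matched the label in 3 CON, 3 PF and 6 PAE libraries. The labels of dam and group could not be checked from the peaks. Results were therefore also computed from these 12 libraries alone. Filtered fragments numbered 11548314 to 16555049 per library, and a peak needed a pileup of at least 5 or 6 fragments to be called.

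The window held more regions shared by all animals than the genome did. Of its 649 regions, 41 (6.32%) had a peak in all 30 libraries, against 3.52% of the 8513 regions on the rest of chromosome 20 and 3.39% of all regions. A further 65 (10.0%) had a peak in 25 to 29 libraries, 373 (57.5%) in 6 to 24, and 170 (26.2%) in 3 to 5. Over all regions these shares were 7.41%, 55.2% and 34.0%. The median window region had a peak in 10 libraries, against 9 on the rest of the chromosome and 8 overall. No test was made of these differences in share, since neighbouring regions share libraries.

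The height of a region in a library is the tallest pileup within it per 1000000 fragments left after filtering. The threshold of 3 libraries cut through a continuum. Within the window, 63 regions had a peak in exactly 3 libraries, with a median height of 0.677 where called, and 107 had a peak in exactly 2, with a median of 0.758. A further 222 were seen in 1 library. The first window region began at position 1060500 and the last ended at 5498681. The nearest regions outside lay at chr20:843546-844164, called in 29 libraries, and chr20:5511646-5512877, called in 11.

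The length of a window region ranged from 255 to 2722 bp (median 595 bp), and together they covered 453.854 kb. Their height had a median of 0.860 among the libraries that called the region. That median was 0.837 on the rest of chromosome 20 and 0.772 over all regions, so window peaks were a little taller than the genome's but close to those of their own chromosome. In the fits below, a library with no peak was given a floor of 0.438, the height under which some library could not have called a peak.

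Regions thickened along the window. The first 500 kb held 9 regions that covered 1.02% of its length, and the second 500 kb held 45 regions that covered 5.71%. The counts then ran 69, 49, 73, 89, 122, 99 and 94 per 500 kb to the end of the window, where 12.7% of the length was covered. Coverage reached 16.1% between 4.0 and 4.5 Mb of the chromosome. The longest stretch without a region was 169.519 kb after position 1339371, followed by 154.449 kb after position 5182423 and 142.338 kb after position 2733831. The median gap between neighbouring regions was 3.381 kb.

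**Figure D1:**
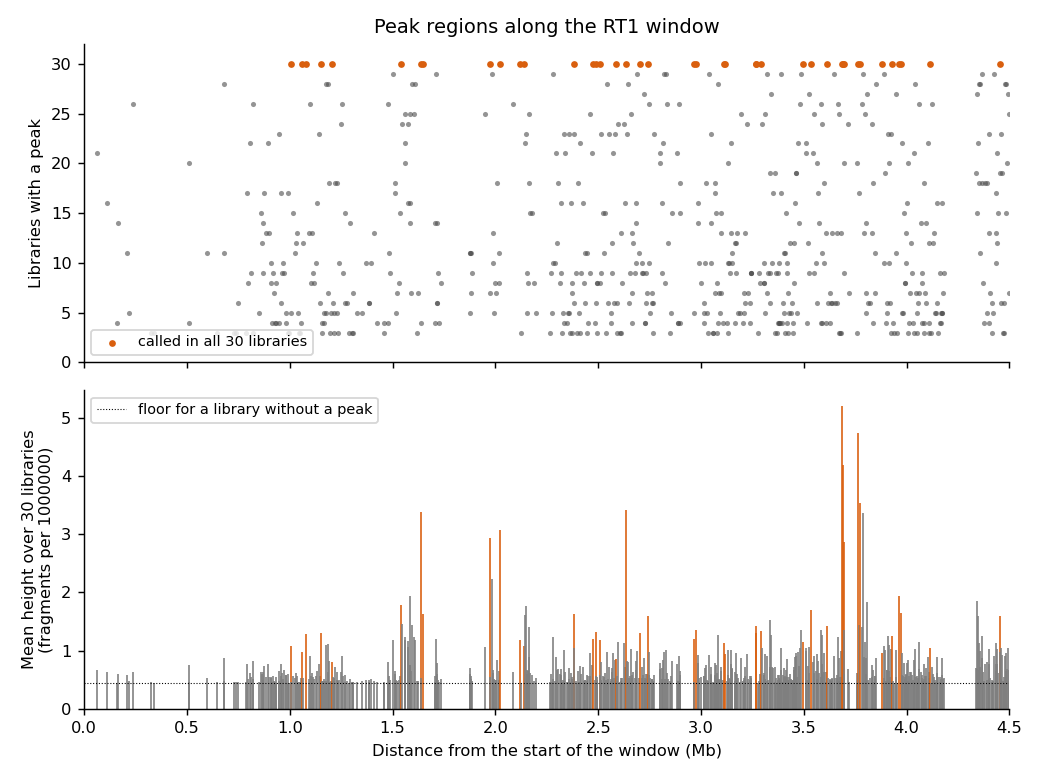
Upper panel, number of the 30 libraries with a peak in each of the 649 window regions against distance from the start of the window in Mb, with the 41 regions called in every library in orange. Lower panel, mean height of the same regions over 30 libraries in fragments per 1000000, with the floor of 0.438 dotted; the tallest bars, up to 5.21, stand between 3.5 and 4.0 Mb from the start.

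The 41 regions called in every animal are the ones whose height was measured in all 30 without the floor. Their mean heights ran from 0.810 to 5.21 fragments per 1000000 with a median of 1.34, the same median as the 11962 regions of the genome called in every library. Between animals, their heights varied with a median coefficient of variation of 24.8%, against 24.7% over the genome's regions of this kind. The tallest library stood a median of 2.70 times above the shortest, and between 1.97 and 5.52 times for single regions. The tallest such region of the genome had a mean height of 1874.31. Of the 41, 11 lay between 4.5 and 5.0 Mb and 7 between 3.5 and 4.0 Mb, while none lay before 2.0 Mb.

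The tallest region was chr20:4685726-4687450, with heights of 3.17 to 7.12 (median 5.98) in CON, 2.84 to 6.81 (median 4.34) in PF and 3.80 to 6.88 (median 5.40) in PAE animals. The 3 groups overlapped over most of their range. Its neighbour chr20:4689548-4690222 had medians of 4.15 in CON, 4.04 in PF and 4.07 in PAE animals and ranged from 2.33 to 5.72 over all animals. PAE and CON animals differed on the log2 scale by 0.08 (SE 0.18) at the first and 0.09 (SE 0.14) at the second, each smaller than its error.

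A second pair of tall regions stood further along the chromosome. At chr20:4764973-4765903, heights were 3.46 to 7.04 (median 5.37) in CON, 2.49 to 7.68 (median 4.57) in PF and 2.11 to 5.41 (median 4.67) in PAE animals. At chr20:4774918-4776051 they were 1.87 to 4.59 (median 2.65) in CON, 2.23 to 4.85 (median 3.76) in PF and 2.34 to 5.64 (median 4.03) in PAE animals. These 2 regions, less than 10 kb apart, leaned in opposite directions between PAE and CON, with log2 differences of −0.46 (SE 0.22, unadjusted p = 0.042) and 0.46 (SE 0.20, unadjusted p = 0.029). Neither passed the limma test after adjustment over all regions (adjusted p = 0.67 and 0.66), and the groups overlapped at both. The fifth of the tallest regions, chr20:3633532-3635261, had medians of 3.43 in CON, 3.54 in PF and 2.99 in PAE animals, with a log2 difference of −0.32 (SE 0.13, adjusted p = 0.66) between PAE and CON.

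Counted per animal, the window held 199 to 335 called regions. CON animals had 287.3 ± 28.4 (SD, n = 10), PF animals 284.5 ± 28.8 and PAE animals 266.5 ± 38.6. As a share of the 649 regions these were 44.3%, 43.8% and 41.1%. Over all regions of the genome the same order was seen, at 39.0%, 37.3% and 35.2%. The ranges of the groups, 239 to 335 in CON, 245 to 323 in PF and 199 to 334 in PAE animals, overlapped almost throughout. The lowest count belonged to the E3 pup labelled male and the highest to the C43 pup labelled female.

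The means of the lanes spread more widely than those of the groups. Libraries of lane 4 called a mean of 251.6 window regions, those of lane 5 called 266.9, of lane 6 called 274.7, of lane 7 called 301.6 and of lane 8 called 304.3. In that order, these were 38.8%, 41.1%, 42.3%, 46.5% and 46.9% of the window regions. The same lanes called 32.6%, 35.1%, 34.7%, 40.1% and 43.7% of all regions, so the spread of the lanes was not particular to the window. Lane 7 held CON and PF libraries only, with means of 296.3 in 3 CON and 309.5 in 2 PF libraries. Lane 4 held CON and PAE libraries only, with means of 256 in 3 CON and 245 in 2 PAE libraries. Within lane 8 the means were 327.5 in 2 CON, 323 in 1 PF and 282.7 in 3 PAE libraries, and within lane 5 they were 284 in 1 CON, 259.5 in 4 PF and 273 in 2 PAE libraries. Within lane 6 they were 277 in 1 CON, 288.3 in 3 PF and 260.3 in 3 PAE libraries. PAE libraries thus had a lower mean than CON libraries in each of the 4 lanes that held both, while PF libraries had no constant place. The ranges of CON and PAE libraries overlapped in lanes 4 and 8, and lanes 5 and 6 held 1 CON library each. Lane was a term in the limma fits of the groups unless stated otherwise.

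**Figure D2:**
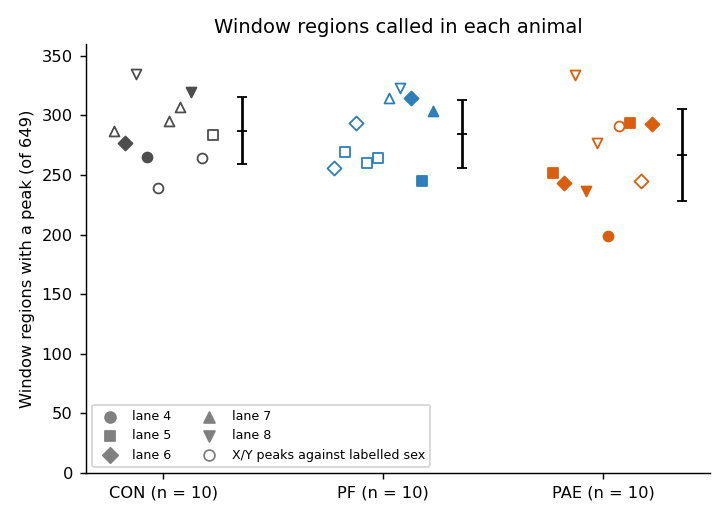
Number of the 649 window regions with a called peak in each animal, by prenatal group, with a symbol for each sequencing lane and open symbols for libraries whose X and Y peaks go against the labelled sex. Bars give mean ± SD of 10 animals, 287.3 ± 28.4 in CON, 284.5 ± 28.8 in PF and 266.5 ± 38.6 in PAE animals, and the clouds overlap.

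Complete absence from a group was uncommon. Of the window regions, 34 (5.24%) had no peak in any CON animal, 38 (5.86%) in any PF animal and 52 (8.01%) in any PAE animal, against 6.42%, 8.14% and 9.24% over all regions. Regions present in all 10 animals of a group numbered 65 in CON, 67 in PF and 64 in PAE animals, or 10.0%, 10.3% and 9.86%, against 6.50%, 6.63% and 5.68% over all regions. Regions called in a single group numbered 6 in CON (0.924%, against 0.862% of all regions), 2 in PF (0.308%, against 0.524%) and 2 in PAE animals (0.308%, against 0.408%). Comparing pairs of groups, 82 regions (12.6%) were called in animals of only one of PAE and CON, 78 (12.0%) of PAE and PF, and 68 (10.5%) of PF and CON. The shares over all regions were 14.6%, 15.7% and 13.7%, each above that of the window.

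No window region differed between prenatal groups after adjustment over all 352479 regions. Between PAE and CON, 0 of 649 passed an FDR of 0.05 in limma (background 0.000284%), and the smallest adjusted p was 0.66. At an unadjusted p under 0.05, 65 (10.0%) were counted against a background of 7.37%, of which 49 were lower in PAE animals (background 6.03%) and 16 higher (background 1.34%). With quantile normalization of the heights, 27 were lower (4.16%, background 3.25%) and 23 higher (3.54%, background 2.48%) at the same threshold, a smaller lean to lower values. That normalization gives every library the same distribution of heights. It thus takes out a shift shared by most regions whatever its source. The median log2 difference was −0.07 over the window and −0.05 over all regions, and 418 of 649 regions (64.4%) were below 0 against 63.3% of all regions.

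Between PAE and PF, 0 regions passed the FDR (background 0%), with a smallest adjusted p of 0.99. An unadjusted p under 0.05 was reached by 36 (5.55%, background 4.46%), 23 lower (background 2.95%) and 13 higher (background 1.51%) in PAE animals. With quantile normalization, 17 were lower (background 2.27%) and 19 higher (background 2.27%). The median log2 difference was −0.04 in the window and −0.02 over all regions. Between PF and CON, 0 passed (background 0%), with a smallest adjusted p of 0.77, and 37 (5.70%, background 6.46%) had an unadjusted p under 0.05, 23 lower (background 4.39%) and 14 higher (background 2.07%) in PF animals. With quantile normalization, 16 were lower (background 2.83%) and 15 higher (background 2.12%). The median was −0.05 in the window and −0.03 over all regions. The PAE and PF comparisons with CON share the CON animals.

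Other tests of the same data counted no window region either. Fisher's exact test of presence, which has no lane term, gave 0 window regions at an FDR of 0.05 in each comparison (background 0%). At an unadjusted p under 0.05 it gave 10 (1.54%, background 0.863%) for PAE against CON, 4 (0.616%, background 0.747%) for PAE against PF and 2 (0.308%, background 0.786%) for PF against CON. The interaction of group with labelled sex gave 0 (background 0%), with 28 (4.31%, background 3.84%) at an unadjusted p under 0.05. That interaction rests on labels that 18 libraries go against. With the 12 libraries whose X and Y peaks matched the label, 0 window regions passed in any of the 3 comparisons, and the smallest adjusted p was 0.054, between PAE and PF. That fit kept the lane term, left out the sex term and had few residual degrees of freedom. The E1 and PF28 pups labelled female were the only females among the 12, so sex was uneven between the groups and not adjusted for. The PF28 pup labelled male was the only one of the 12 on lane 7, so it did not inform the group differences. The PF side of that fit thus rests on the PF27 pup labelled male and the PF28 pup labelled female. Over all regions, this smaller set of libraries gave 0 for PAE against CON (background 0%), 261 for PAE against PF (background 0.074%) and 143 for PF against CON (background 0.0406%).

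The region with the smallest p between PAE and CON was chr20:4349567-4350432, 866 bp long. It was called in 9 CON animals, 7 PF animals and 1 PAE animal. Called heights were 0.573 to 1.29 in CON and 0.658 to 1.03 in PF animals, while the single PAE peak, in the E1 pup labelled female, reached 0.981. The PAE animals stood at −0.83 on the log2 scale relative to CON (SE 0.23, unadjusted p = 9.5e-04, adjusted p = 0.66 in limma), and the PAE peak lay within the CON range. It was −1.03 in the 12 libraries with matching X and Y peaks, and between −0.96 and −0.73 when each dam was left out. The difference between PAE and PF was −0.44 (SE 0.23, adjusted p = 0.99), but 0.01 in those 12 libraries. There the PF side rests on the PF27 pup labelled male and the PF28 pup labelled female.

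A similar decline in calls was seen at chr20:3371614-3372058. It had a peak in 6 CON animals, at heights of 0.358 to 1.15, in both pups of the PF dam PF26 at 0.585 and 0.569, and in no PAE animal. The log2 difference of PAE from CON was −0.47 (SE 0.16, adjusted p = 0.66), and the unadjusted p of 0.0058 rested on animals set to the floor. Since 4 CON animals had no peak there, the groups overlapped.

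The third, chr20:3891292-3892103, had a peak in 10 CON, 9 PF and 7 PAE animals. Heights ran from 0.723 to 1.36 (median 0.979) in CON animals, and had medians of 0.957 in PF and 0.751 in PAE animals. The log2 difference of PAE from CON was −0.63 (SE 0.21, adjusted p = 0.66). PAE animals with a peak lay within the range of the other groups, apart from the lowest of them.

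Presence differed most between groups at chr20:5397894-5398712, besides the first and second of these regions. It had a peak in 4 CON, 8 PF and 1 PAE animals. CON animals with a peak reached 1.13 to 1.85, PF animals 0.586 to 1.90 and the PAE pup, from dam E3, 0.715. The log2 difference was −0.81 (SE 0.33, adjusted p = 0.66) for PAE against CON and −0.77 (SE 0.33, adjusted p = 0.99) for PAE against PF. Between PF and CON it was −0.05 (SE 0.34) in the fit with lane, although mean heights with the floor were 0.931 in PF and 0.892 in CON animals. With a pseudocount of 0.1 in place of the floor, the log2 difference between PF and CON became 0.86.

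Between PAE and PF, the smallest p belonged to chr20:5085999-5086326, seen in 3 PAE animals and no other. These were both pups of dam E9, at 0.875 and 1.07, and the E1 pup labelled male, at 0.738. The log2 difference was 0.35 (SE 0.12, unadjusted p = 0.0056, adjusted p = 0.99), and 7 PAE animals had no peak.

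The second, chr20:3024130-3024979, was one of the 41 regions present in every animal. Heights ran from 1.93 to 4.58 (median 2.79) in CON, 1.77 to 3.50 (median 2.46) in PF and 1.97 to 5.08 (median 3.41) in PAE animals. PAE animals stood 0.51 (SE 0.19) above PF animals on the log2 scale and 0.11 (SE 0.19) above CON animals, with adjusted p of 0.99 and 0.90. The groups overlapped, with the lowest PAE animal below the PF median. The third, chr20:2201287-2201734, had a peak in 4 PF animals and 1 PAE animal, and its log2 difference was −0.33 (SE 0.13, adjusted p = 0.99).

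**Figure D3:**
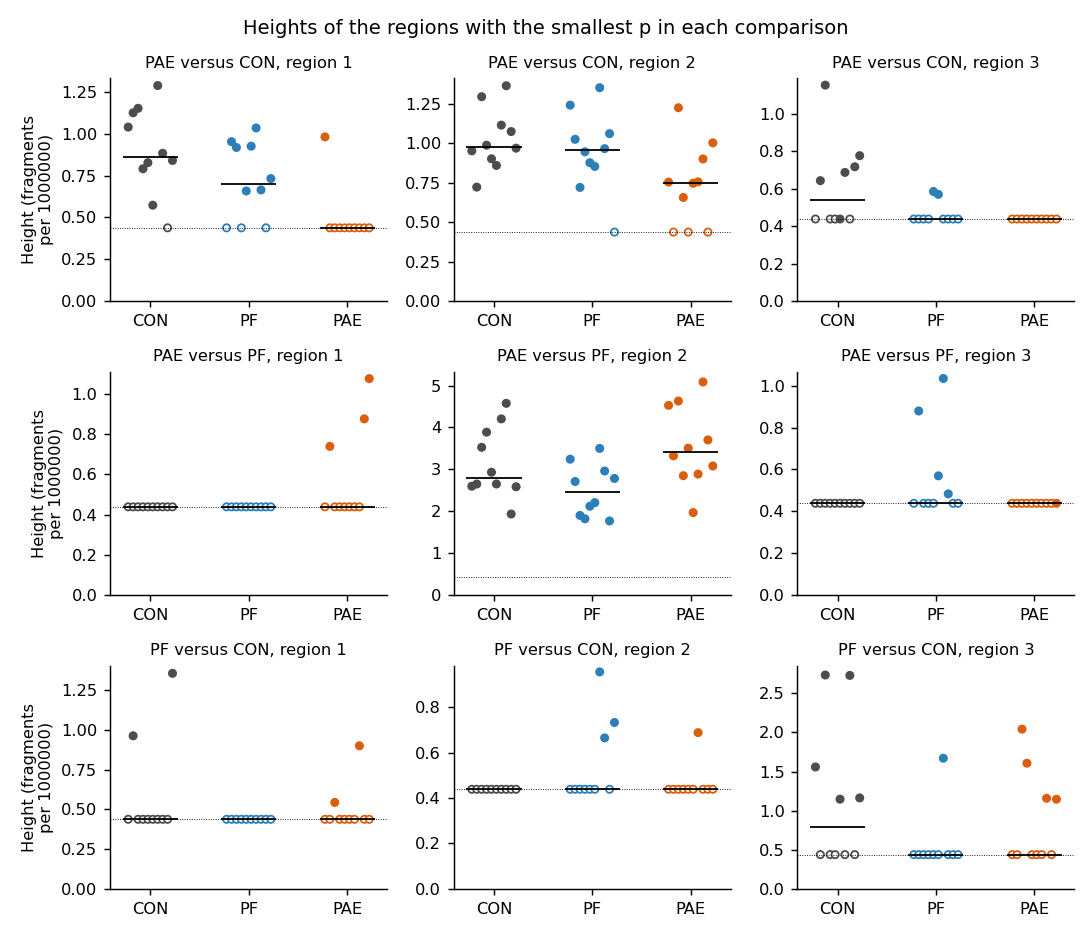
Normalized height in fragments per 1000000 of the 3 regions with the smallest p in each comparison of prenatal groups, for each animal; open points at the dotted floor of 0.438 are animals without a peak and lines are medians of 10. In region 1 of PAE versus CON, 9 CON animals, 7 PF animals and 1 PAE animal have a peak, and in every panel the groups overlap.

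Both Stk19, a gene for a nuclear protein with a part in transcription-coupled DNA repair, and Atf6b, a gene for a sensor of unfolded protein in the endoplasmic reticulum, lie in the class III stretch. In the RefSeq annotation of another assembly, GRCr8, they are parted by C4a, the gene for a complement component, and Cyp21a1, the gene for a steroid hydroxylase. The lists of DMRs that accompany the study place several of their regions in this window. At one they name Atf6b and Stk19 with the features exon and intron, without saying which feature belongs to which gene. At another they name an intron of Stk19. How the first came to carry both names, although GRCr8 puts other genes between them, was not examined. In all, 4 listed regions fell in the window, of which 3 were among the 649.

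The region annotated to Atf6b and Stk19, chr20:4415855-4416282, had a peak in 3 CON, 4 PF and 2 PAE animals. Called heights were 0.788 to 1.12 in CON, 0.495 to 1.11 in PF and 0.644 to 0.905 in PAE animals. The log2 differences from CON were −0.12 (SE 0.24, adjusted p = 0.92) in PAE and −0.05 (SE 0.25, adjusted p = 0.98) in PF animals. The groups overlapped fully, and most animals of each had no peak.

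The region annotated to an intron of Stk19, chr20:4467627-4468023, had a peak in 5 animals. These were 1 CON animal at 1.29, 2 PF animals at 0.787 and 1.02, and 2 PAE animals at 1.36 and 1.22. The differences were 0.26 (SE 0.25, adjusted p = 0.81) between PAE and CON and −0.03 (SE 0.26, adjusted p = 0.99) between PF and CON. No dam had a peak in both of its pups there.

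A listed region without a gene, chr20:3015182-3015643, was called in 1 CON animal at 0.725, in 3 PF animals at 0.425 to 0.498 and in 4 PAE animals at 0.511 to 1.00. Its log2 difference was 0.23 (SE 0.15, adjusted p = 0.72) between PAE and CON and 0.03 (SE 0.15) between PF and CON. The remaining listed region, chr20:2569621-2569903, lay just outside the rule, with a peak in 2 libraries only, the C41 pup labelled female at 0.866 and the PF24 pup labelled female at 0.655. Reads per region, from which such lists are made, were not used here, and peak heights show nothing below the floor.

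The stretch of 52.169 kb from the region annotated to Atf6b and Stk19 to that annotated to an intron of Stk19 held 17 window regions. All 17 were present in some animals and absent from others. They were called in 3 to 19 libraries with a median of 7, and none in all 30. Median heights where called ran from 0.689 to 1.58. Between PAE and CON, 9 of the 17 (52.9%, against 63.3% of all regions) were lower, with a median log2 difference of −0.01, and 1 (5.88%, background 7.37%) had an unadjusted p under 0.05. Between PAE and PF, 10 (58.8%, against 56.4%) were lower, with a median of −0.08, and 1 (5.88%, background 4.46%) had such a p. Between PF and CON, 10 (58.8%, against 57.7%) were lower, with a median of −0.05, and 2 (11.8%, background 6.46%) had such a p.

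The 2 regions counted between PF and CON stood side by side within 5 kb of the Atf6b and Stk19 region and leaned in opposite directions. At chr20:4418117-4418532, 5 CON, 1 PF and 4 PAE animals had a peak, and the highest reached 2.73 in CON, 1.67 in PF and 2.04 in PAE animals. The PF animals were −0.86 (SE 0.30, unadjusted p = 0.0073, adjusted p = 0.77) from CON on the log2 scale. At chr20:4419766-4420532, no CON animal, 3 PF animals and 1 PAE animal had a peak, with a difference of 0.38 (SE 0.13, adjusted p = 0.77). The remaining region of the 3 with the smallest p between PF and CON was chr20:5400428-5400925, called in 2 CON and 2 PAE animals, at −0.51 (SE 0.17, adjusted p = 0.77). At each of these 3 regions, at least 5 animals of every group had no peak.

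Over all window regions, littermates were little more alike than pups of different dams. Likeness was measured as the phi coefficient of presence over the 649 regions, which is 1 for identical patterns and 0 for unrelated ones. Its median was 0.355 for the 15 littermate pairs, 0.337 for the 120 other pairs of the same group and 0.337 for the 300 pairs of different groups. Over all regions of the genome the medians were 0.314, 0.314 and 0.312, and on the rest of chromosome 20 they were 0.318, 0.319 and 0.315. The littermate value in the window thus lay 0.019 above that of other pairs, within a spread of 0.221 to 0.437 between dams. Among the 373 window regions called in 6 to 24 libraries, the medians were 0.155, 0.111 and 0.107. The littermate value there lay 0.044 above that of other pairs of the group, within a spread of −0.039 to 0.287 between dams. Over the genome's regions of this kind the medians were 0.114, 0.120 and 0.113. These differences were not tested. For 2 of the 30 libraries, the most similar library in the window was the littermate.

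The dams with the most similar pups were E9, with a phi of 0.437, and C45, with 0.436. Their pups were alike, with both or neither called, at 72.3% and 71.8% of the window regions. Over all regions they were alike at 67.9% and 68.7%, with a phi of 0.302 and 0.368. The least alike were the pups of C43, at 60.6% with a phi of 0.221, of which 1 library had the most called regions of all. Both E9 libraries were run on lane 6, the C45 libraries on lanes 7 and 8 and the C43 libraries on lanes 8 and 4. The E2 pups, both on lane 8, were among the least alike, at 62.9% with a phi of 0.276. Over all regions, C43 pups were alike at 60.8% with a phi of 0.239, and E2 pups at 62.3% with a phi of 0.257. There too C43 had the lowest phi of the dams, and C45 had the highest. Only dams E1 and PF28 had pups whose X and Y peaks both matched the labels, and their phi values were 0.318 and 0.390. Over all window regions, the median correlation of log2 height was 0.570 between littermates, 0.571 in other pairs of a group and 0.560 between groups.

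**Figure D4:**
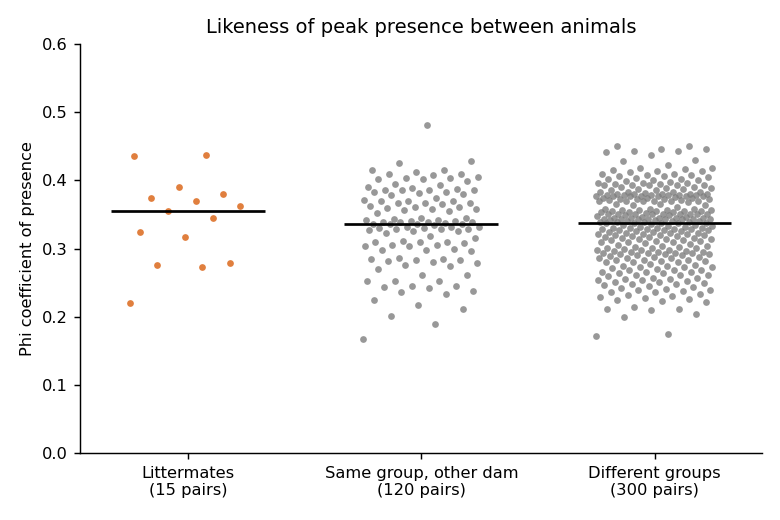
Phi coefficient of peak presence over the 649 window regions for each pair of animals, for littermates, other pairs of the same group and pairs of different groups, with lines at the medians of 0.355, 0.337 and 0.337. The littermate points lie inside the cloud of the other pairs.

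Region by region, the spread between dams was tested against the spread between littermates with lane and labelled sex as covariates. Of the 649 regions, 0 passed an FDR of 0.05 in limma (background 0%), the smallest adjusted p was 0.41, and 42 (6.47%, background 4.95%) had an unadjusted p under 0.05. Without the lane term the smallest adjusted p in the window was 0.059, and 0 passed, against 584 of all regions (background 0.166%). Among the 114 regions called in 12 to 18 libraries, where littermates have most room to differ, a median of 7 of 15 dams had both or neither pup called, as over the genome's 58625 regions of this kind. At least 12 dams were alike at 2 of the 114 (1.75%) against 1.34% of the genome's.

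Those 2 regions were chr20:4662687-4663658 and chr20:4996011-4996771. At each, 5 dams had a peak in both pups, 7 in neither and 3 in one. At the first, the dams with both were C46, E6, E9, PF24 and PF28, with heights of 0.386 to 1.07 in these pups. At the second they were C45, C46, E1, PF22 and PF28. Each such set thus drew on all 3 groups. The litter test gave adjusted p of 0.94 at both.

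The second smallest p of the litter test belonged to chr20:5435864-5436962, called in 17 animals. Both pups of E1, E6, E9, PF22, PF26 and PF28 had a peak, at 1.24 to 1.93, and neither pup of C41, C44, E2 and PF27 had one. The other 5 dams were split. The F statistic was 5.17 (unadjusted p = 9.0e-04, adjusted p = 0.41). The region with the largest F, 5.18 at chr20:2723793-2724259, was called in 4 animals, of which the 2 pups of PF22 stood above the floor at 0.690 and 0.586 and 2 PAE animals below it. The other 3 regions with a small litter p, which began at positions 5463315, 4519571 and 4149605, were called in 19, 12 and 10 animals and had adjusted p of 0.61 to 0.67.

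Some regions were tall where called and yet had no peak in several animals. From peaks alone, unmethylated sequence cannot be told apart from sequence that was absent or could not be mapped. Nor can it be told apart from methylated sequence that stayed under the calling threshold. Such regions were sought after the values had been seen, so they are described without a test. With a median called height of at least 4 times the floor, or 1.75, and at least 3 libraries without a peak, 9 window regions (1.39%) qualified, against 0.458% on the rest of chromosome 20 and 0.362% of all regions. At 3 times the floor the shares were 8.32%, 4.33% and 2.49%, and at 2 times the floor 37.1%, 37.3% and 27.3%. The excess over the rest of the chromosome was thus limited to the tallest of these regions.

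In order along the chromosome, the 9 are called A to I here. Region A, chr20:2582212-2582674, had a peak in 25 animals, at heights of 1.53 to 3.03. The 5 without one were both pups of C46 and 1 pup each of C44, E2 and PF28, and 11 dams had the peak in both pups. The lowest called height was more than 3 times the floor, and coverage in the animals without a peak is not known.

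Regions B and C, chr20:3144902-3145468 and chr20:3146981-3148136, lay within 2 kb of each other. B had a peak in 22 animals (5 CON, 8 PF and 9 PAE), with a median height of 2.20, and C in 23 (7 CON, 8 PF and 8 PAE), with a median of 2.36. The C43 pup labelled female and the C41, C46 and PF22 pups labelled male lacked both peaks. B had the largest difference between PAE and CON of the 9, a log2 difference of 1.23 (SE 0.42), and region C differed by 0.60 (SE 0.44). The groups overlapped at B, where the highest CON animal reached 2.87 and the highest PAE animal 2.75.

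Region D, chr20:4335987-4336526, was present in 19 animals at 0.846 to 3.72, and only 4 dams had it in both pups while 11 had it in one. Region E, chr20:4766152-4766643, lay within 1 kb of the tall region at 4764973 that every animal had, but was itself seen in 17 animals at 1.49 to 3.45. Both pups carried it in 5 dams, neither in 3, namely C45, E3 and E9. It was called in 5 pups labelled female and 12 labelled male. Of these 5, only the PF28 pup had X and Y peaks that matched the label. Of these 12, the C44, C46, PF22, PF24 and PF26 pups had X and Y peaks that went against it. No lean by sex can thus be read from the labels. Of the libraries on lane 8, only that of the E2 pup labelled male had it, while both E9 pups, on lane 6, lacked it. Whether lane accounts for its absence was not tested. Neighbouring stretches of methylated sequence were thus called in all 30 animals and in 17 of them.

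Region F, chr20:4806371-4807150, had a peak in 27 animals, with 1 pup each of C41, C44 and PF26 lacking it. Region G, chr20:4903767-4904123, was the reverse, with a peak in 5 animals at 1.24 to 2.59 and none in 25. Its 5 carriers were 2 CON and 3 PF animals from 5 different dams, and no PAE animal had it.

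Regions H and I, chr20:5342927-5343379 and chr20:5344345-5344930, lay within 10 kb of the end of the gap of 154.449 kb. H was present in 27 animals and I in 22, of which 5 were CON, 9 PF and 8 PAE animals. Only the C41 pup labelled female lacked both. Both pups of C41 and C45 lacked I. Of the libraries on lane 8, only those of the E3 pup labelled female and the E2 pup labelled male had I, and the part of lane was not tested.

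**Figure D5:**
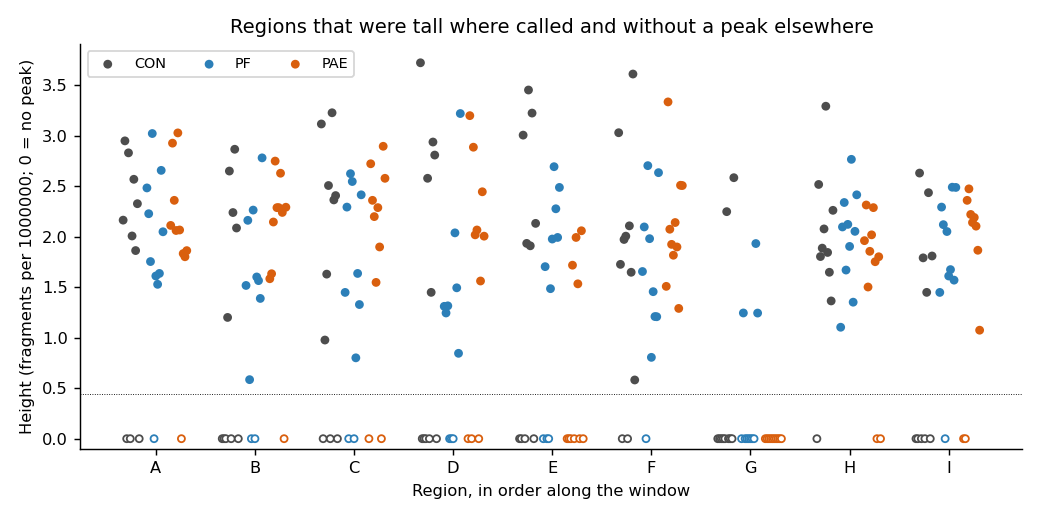
Height in fragments per 1000000 of the 9 window regions A to I in each animal, coloured by prenatal group, with animals without a peak as open points at 0 and the floor of 0.438 dotted. Called animals lie mostly between 1 and 3.7, well above the floor, and animals of all 3 groups lack the peak in regions A to E, G and I.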

How the data were processed

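Genomic DNA from the PFC of 30 rats (10 CON, 10 PF and 10 PAE) was profiled by meDIP-seq. According to the study's methods, BWA placed the reads on Rn6 and samtools dropped duplicates, unpaired reads and reads of low mapping quality. The authors ran MACS2 (version 2.1.4 in the file headers) on each library separately without a control. The deposited signal of a peak is its pileup of fragments, which the authors did not scale. The deposited −log10 q-value set the stricter peak threshold, and the deposited fold enrichment, a ratio to local background, was only tabulated.

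Peaks of all libraries with an overlap of 1 bp or more were joined into regions. Those called in at least 3 libraries were kept, and regions on the sex chromosomes were left out. Heights are the highest pileup per 1000000 filtered fragments, with libraries without a peak, or with a lower one, set to 0.438. Heights on the log2 scale entered limma 3.58.1 (R 4.3.3, trended prior variance), with a model of group, labelled sex and lane over all 352479 regions, with Benjamini-Hochberg adjustment at an FDR of 0.05. Litters were tested in a model of dam, labelled sex and lane, over the dams of the same group. Fisher's exact test on presence was two-sided. Simulated data with known changes were used to test the fit. Summaries used Python 3.11.15, numpy 2.4.6, pandas 2.3.3, scipy 1.17.1 and matplotlib 3.10.9.

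The window, its members and all lists were chosen with earlier results of these data known. Named regions were the window regions listed as DMRs by the study, the 3 with the smallest p in each group comparison, the 5 with the smallest litter p, the 5 tallest present in all animals, the 3 with the widest difference in calls between groups and, among regions called in 12 to 18 libraries, the 3 with the most dams alike. Alternatives were no lane term, lane effects removed beforehand, no sex term, sex from X and Y peaks, a pseudocount of 0.1 without a floor, quantile normalization, a peak threshold of q below 0.01, a coverage of at least 50% of a region by the peak, a random litter effect, and each dam left out in turn. The precision of a height is limited by the 5 or 6 fragments behind the lowest peaks. No sequence is shown, since no genome of Rn6 was used here.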

Additional observations from a re-analysis of the deposited data

Results flagged for a closer look

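Heights were examined in 78 sets of 10 animals, each of the 3 groups at each of 26 named regions, as were the counts of called window regions in the 3 groups. A single animal stood apart from the other 9 in 14 of these 81 sets, all of them sets of heights, by a gap to the nearest animal that passed the critical value of Dixon's test. Chance gives about 1 in 20 for untied values, a rate that does not apply where most animals are tied at the floor. In 6 of the 14, the animal was the only one of its group above the floor. These were the C43 pup labelled male at 0.725 in CON at chr20:3015182-3015643, the E1 pup labelled female at 0.981 in PAE at chr20:4349567-4350432, the PF27 pup labelled female at 1.67 in PF at chr20:4418117-4418532, the E6 pup labelled female at 0.687 in PAE at chr20:4419766-4420532, the C44 pup labelled male at 1.29 in CON at chr20:4467627-4468023, and the E3 pup labelled female at 0.715 in PAE at chr20:5397894-5398712.

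In the others, a few animals of the group were called and one stood highest. In CON, the C43 pup labelled female reached 1.15 at the region beginning at 3371614. In PF, the PF26 pup labelled male reached 0.498 at the region beginning at 3015182, and the PF27 pup labelled female reached 1.11 at the Atf6b and Stk19 region and 1.75 at the region beginning at 4519571. In PAE, the E9 pup labelled male reached 0.931 at the region beginning at 1162198, the E1 pup labelled female 0.905 at the Atf6b and Stk19 region, the E6 pup labelled male 0.901 at the region beginning at 5400428, and the E2 pup labelled female 4.77 at the region beginning at 3633532, where every animal had a peak. The PF27 pup labelled female accounted for 3 of the 14.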

How the results depend on the processing

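The count of window regions past the FDR was 0 in each of the 3 group comparisons under the 11 alternatives run, in the litter test under the 7 run, and in both with each of 15 dams left out. The interaction of group with labelled sex was fitted once only. The smallest adjusted p in the window reached 0.11 for PAE against CON and 0.13 for PF against CON when lane effects were removed before the fit, a setting whose residual degrees of freedom do not count the lanes. Requiring a peak in at least 2 libraries gave 756 regions, and peaks covering 50% of a region gave 566. No paired analysis was possible because the groups share no replicate numbers, and a random litter effect (consensus correlation −0.03) changed no call.

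No difference of a single region was called, and some changed sign, most of them near 0 to begin with, but also the −0.44 of PAE against PF at 4349567. Without the lane term, PF against CON was −0.0539 at 3015182, 0.0512 at 4467627 and 0.18 at 5397894. With the pseudocount it was 0.0156 at 4415855, 0.0905 at 4467627 and 0.86 at 5397894, and with 50% coverage 0.55 at 5397894. In the 12 libraries with matching X and Y peaks, an alternative chosen after seeing the data, it was −0.0407 at 3015182 and 0.0685 at 5397894, and PAE against PF was 0.0571 at 3371614 and 0.0143 at 4349567. That alternative had no sex term, and its PF side rests on the PF27 pup labelled male and the PF28 pup labelled female. With single dams left out, PF against CON ran from −0.39 to 0.0597 at 4415855, from −0.18 to 0.10 at 4467627 and from −0.27 to 0.14 at 5397894. PAE against PF ran from −0.11 to 0.0158 at 3371614 and from −0.25 to 0.33 at 4415855. Coverage under the calling threshold is not in the peaks, so a difference among low animals cannot be seen.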

Other observations

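Heights of neighbouring regions hardly moved together across animals, and at the median not at all within 5 kb. Over the 373 window regions called in 6 to 24 libraries, the correlation of log2 heights over 30 libraries had a median of −0.033 for the 174 pairs within 5 kb and 0.067 for the 645 pairs at 5 to 20 kb. The medians were −0.019 and 0.061 on the rest of chromosome 20. For pairs at 100 to 500 kb, the median was 0.038 in the window and 0.062 on the rest of the chromosome. All pairs share the same libraries and lanes, so these values are a description only.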
